A study of Mus musculus with 4 samples.

Results

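The genes described here are 6 parts of the switch that lets a granule neuron progenitor enter a new cell cycle: the D-type cyclin genes Ccnd1 and Ccnd2, their kinase partners Cdk4 and Cdk6, the transcription factor gene Mycn, and Cdkn1b, which encodes the cyclin-dependent kinase inhibitor p27. They were chosen by name from the 15002 genes of the count tables. All 6 were detected and all 6 passed the filter on low counts in the comparisons between cell classes. Their levels were measured in G2/M, S-phase, non-dividing and neuronal cells of 4 mouse medulloblastomas, in barcodes with at least 500 unique molecular identifiers (UMIs, each marking 1 captured mRNA molecule).

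All 4 tumours form 1 group. Each came from an untreated mouse at postnatal day 16 that carried hGFAP-Cre, SmoM2 and homozygous floxed Prkaa1 and Prkaa2. hGFAP-Cre is a Cre recombinase driven by a human GFAP promoter and active in neural stem and progenitor cells. SmoM2 is an activated form of Smoothened, the receptor component that turns on Hedgehog signalling. Prkaa1 and Prkaa2 encode the catalytic subunits of AMP-activated protein kinase, an energy sensor. Every tumour carried all of these alleles, so no value here separates the effect of any of them, and tumours that kept both kinase genes were not analysed here. The labels do not say whether the mice were littermates. The p-values set differences between classes within a tumour against how much these differences vary over these 4 tumours.

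D-type cyclins carry mitogenic signals to the cell cycle: bound to CDK4 or CDK6 they phosphorylate the retinoblastoma protein, which releases E2F factors and allows DNA replication. p27 binds cyclin and CDK complexes, restrains CDK2 and accumulates as cells leave the cycle. In the developing cerebellum, Sonic hedgehog keeps granule neuron progenitors dividing through GLI factors, with Mycn, Ccnd1 and Ccnd2 among the genes that respond, and SmoM2 holds this pathway on.

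The tables held 566 to 1083 barcodes of at least 500 UMIs per tumour, 3222 in all, with a median of 749 to 972 UMIs. Mitochondrial transcripts made up 12.1% of UMIs in tumour 1 and 12.7% in tumour 2, but 2.68% in tumour 3 and 2.13% in tumour 4, and no barcode sequence was shared between tumours. Clusters were built with the members left out. G2/M cells (625, median 1105 UMIs) and S-phase cells (494, median 995.5 UMIs) were named by their markers. Neuronal cells (997, median 761 UMIs) joined a cluster led by genes that include Nhlh1, which rests on only 3 neuronal markers, and a cluster led by Grin2b. Granule neuron markers had a mean log2 fold against other cells of 0.641 and 1.815 in these clusters. Of 2 unipolar brush neuron markers 1 was present, with 1.063 and 1.179, at a mean of 38.8 and 45.5 CPM. The non-dividing class (965, median 736 UMIs) is a remainder that joined a Hes1-led cluster of 593 cells and a low-depth cluster of 372 cells (median 611.5 UMIs). Levels are given as CPM, the gene's UMIs in the summed cells of 1 class and tumour, scaled to a total of 1000000 UMIs. The 12 granule-lineage progenitor markers summed to 3524 to 4762 CPM, neuronal cells included, with a mean log2 fold against other cells of -0.51 and -0.56 in the neuronal clusters, 0.36 in the Hes1-led cluster and -0.30 in the low-depth cluster. Cycle markers were not absent from the non-dividing class: 22 S-phase markers summed to 2545 to 3132 CPM there, as against 2646 to 3268 in G2/M, 5992 to 7177 in S-phase and 778 to 1430 CPM in neuronal cells. The 18 G2/M markers summed to 1297 to 4421 CPM there, 4545 to 9333 in S-phase and 737 to 2069 CPM in neuronal cells. The name is that of a remainder: the class may hold cycling cells, and whether its cells divide was not tested. In these classes microglial markers summed to at most 171 and endothelial markers to at most 44.5 CPM. Oligodendrocyte lineage markers summed to at most 377, 500, 875 and 579 CPM in G2/M, S-phase, non-dividing and neuronal cells. In the low-depth cluster they reached 1292 CPM. Another 51 cells were of the oligodendrocyte lineage, 36 formed a Ttr-led cluster that was left unnamed because its leading genes go against its astrocyte and radial glia markers, and 42 carried immune, endothelial, mural or fibroblast markers. Prkaa1 was read in 3 to 16 UMIs per tumour and Prkaa2 in 5 to 14, but a 3′ tag can lie outside a deleted part and does not check the deletion.

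Where the members lie bears on how their 3′ reads can be assigned. In GRCm38, the assembly also called mm10, Ccnd1 spans chr7:144929931-144939925 and Ccnd2 chr6:127125162-127152193, both on the minus strand (GENCODE M21). Cdk4 spans chr10:127063534-127067920, Cdk6 chr5:3341485-3531008 and Cdkn1b chr6:134920401-134925513, all on the plus strand, and Mycn spans chr12:12936093-12941914 on the minus strand. The 3′ end of Cdk4 overlaps Tspan31, on the other strand, over 641 bases, that of Ccnd1 overlaps Oraov1 over 1771 bases, and that of Ccnd2 overlaps the antisense gene Gm43126 over 994 bases. Whether strand was used in counting is not given in the sources used here, so molecules of these pairs may be mixed. Tspan31 had 200 UMIs and Oraov1 had 244, and Gm43126 was not analysed here.

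Promoter windows from RefSeq (GRCm38.p6, 250 bases before each gene's start) were at hand for 4 members, Cdk4, Cdk6, Mycn and Cdkn1b. Both strands were searched for the E-box CACGTG, which MYC family dimers can bind, for the E2F letters TTTCCCGC, TTTGGCGC, TTTCGCGC and TTTGCCGC, and for the GLI letters GACCACCCA. The Cdk4 window is shown because it held 4 E-boxes, a number reached by 0.0213% of 32851 windows, while 6.02% held at least 1. The Mycn window is shown because it held 3 E2F matches, of which 2 overlap. At least 2 were found in 0.0548% of windows and at least 1 in 1.86%. The stretches printed are those that lie before the GENCODE gene start, chr10:127063285-127063533 (plus strand) and chr12:12941915-12942086 (minus strand), read 5′ to 3′ with the matches in capitals.
Cdk4: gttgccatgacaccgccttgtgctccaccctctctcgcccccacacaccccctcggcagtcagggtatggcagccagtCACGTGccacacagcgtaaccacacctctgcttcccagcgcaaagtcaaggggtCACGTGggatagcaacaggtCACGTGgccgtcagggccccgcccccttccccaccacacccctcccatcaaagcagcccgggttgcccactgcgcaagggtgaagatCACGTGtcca
Mycn: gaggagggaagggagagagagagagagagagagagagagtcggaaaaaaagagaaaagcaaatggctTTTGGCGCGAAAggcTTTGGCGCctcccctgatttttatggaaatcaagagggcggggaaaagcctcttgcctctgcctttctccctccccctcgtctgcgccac
The 4 matches of Cdk4 begin 172 to 11 bases upstream of the RefSeq start, and the 3 of Mycn begin 183 to 168 bases upstream. The Cdk6 window held 1 E-box, 220 bases upstream, and the Cdkn1b window none of these letters. The GLI letters were in none of the 4 windows and in 0.225% of all windows. A match describes letters only, and no binding was measured.

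Ccnd1, a cyclin gene that responds to mitogens in G1, had overlapping levels in G2/M, S-phase and non-dividing cells and was several-fold lower in neuronal cells. In tumours 1 to 4, Ccnd1 had 400.2, 323.3, 541.7 and 452.6 CPM in G2/M cells (mean 429 ± 91.8, SD, n = 4). In S-phase cells it had 506, 346, 379 and 467 CPM (425 ± 74.7, SD, n = 4). In non-dividing cells it had 291, 318, 604 and 448 CPM (415 ± 143, SD, n = 4). These ranges overlap. Tumour 2 was below the class mean in all 3 classes and tumour 4 above it. In neuronal cells Ccnd1 had 63.1, 94.0, 74.4 and 137 CPM (92.0 ± 32.3, SD, n = 4), with the highest neuronal value below the lowest value of any other class.

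Ccnd2 had the highest level of the 6 members in each of the 4 classes. A 3′ count does not depend on transcript length, but capture can differ between genes. It had 1134, 1408, 1195 and 1358 CPM in G2/M cells of tumours 1 to 4 (1274 ± 130, SD, n = 4). In S-phase cells it had 1215, 1537, 1599 and 1518 CPM (1467 ± 172, SD, n = 4), and in non-dividing cells 1004, 1198, 1680 and 1577 CPM (1365 ± 317, SD, n = 4). Neuronal cells had 808, 926, 1129 and 1053 CPM (979 ± 142, SD, n = 4). The neuronal value was the lowest of the 4 classes in each tumour. The neuronal range lay below those of G2/M and S-phase cells and overlapped that of non-dividing cells.

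Cdk4, the kinase that binds both cyclins, differed more between tumours than between classes. It had 400.2, 471, 709 and 803 CPM in G2/M cells (596 ± 191, SD, n = 4), 451, 400.2, 687 and 870 CPM in S-phase cells (602 ± 218, SD, n = 4) and 411, 487, 783 and 1035 CPM in non-dividing cells (679 ± 286, SD, n = 4). Neuronal cells had 387, 371, 514 and 615 CPM (472 ± 115, SD, n = 4). Tumours 1 and 2 were below tumours 3 and 4 in each class, and they remained so when mitochondrial UMIs were left out of the total (415.7 to 584 CPM against 528 to 1058). Within each tumour the neuronal value was the lowest of the 4.

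Cdk6, the second kinase partner, was read in few molecules, 75 to 142 per class over the 4 tumours together. It had 145, 87.6, 183 and 209 CPM in G2/M cells (156 ± 52.9, SD, n = 4) and 92.0, 91.0, 262 and 180.5 CPM in S-phase cells (156 ± 82.0, SD, n = 4). It had 126, 139, 106 and 204 CPM in non-dividing cells (144 ± 42.3, SD, n = 4) and 33.7, 74.2, 128 and 119 CPM in neuronal cells (88.8 ± 43.6, SD, n = 4). The neuronal range overlapped all 3 others, and tumour 3 had more Cdk6 in neuronal than in non-dividing cells.

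Mycn, which drives growth and cell cycle entry downstream of Hedgehog signals, had 278, 249, 406 and 416 CPM in G2/M cells (337 ± 86.1, SD, n = 4) and 193, 391, 389 and 430.3 CPM in S-phase cells (351 ± 107, SD, n = 4). It had 234, 298, 432 and 520.5 CPM in non-dividing cells (371 ± 129, SD, n = 4). In neuronal cells it had 80.0, 203, 189 and 306 CPM (194 ± 92.3, SD, n = 4). The ranges overlap, yet in each tumour the neuronal level was the lowest of the 4 classes.

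Cdkn1b followed another order. It had 387, 441, 683 and 841 CPM in neuronal cells (588 ± 212, SD, n = 4) and 300.2, 370.4, 629 and 680.2 CPM in G2/M cells (495 ± 188, SD, n = 4). Non-dividing cells had 262, 219, 359 and 524 CPM (341 ± 135, SD, n = 4) and S-phase cells 129, 318, 271 and 338 CPM (264 ± 94.4, SD, n = 4). In every tumour the order began with neuronal cells, followed by G2/M cells, while the place of the other two classes differed between tumours. The ranges of neighbouring classes overlap, with tumour 4 the highest of the 4 tumours in each class.

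**Figure D1:**
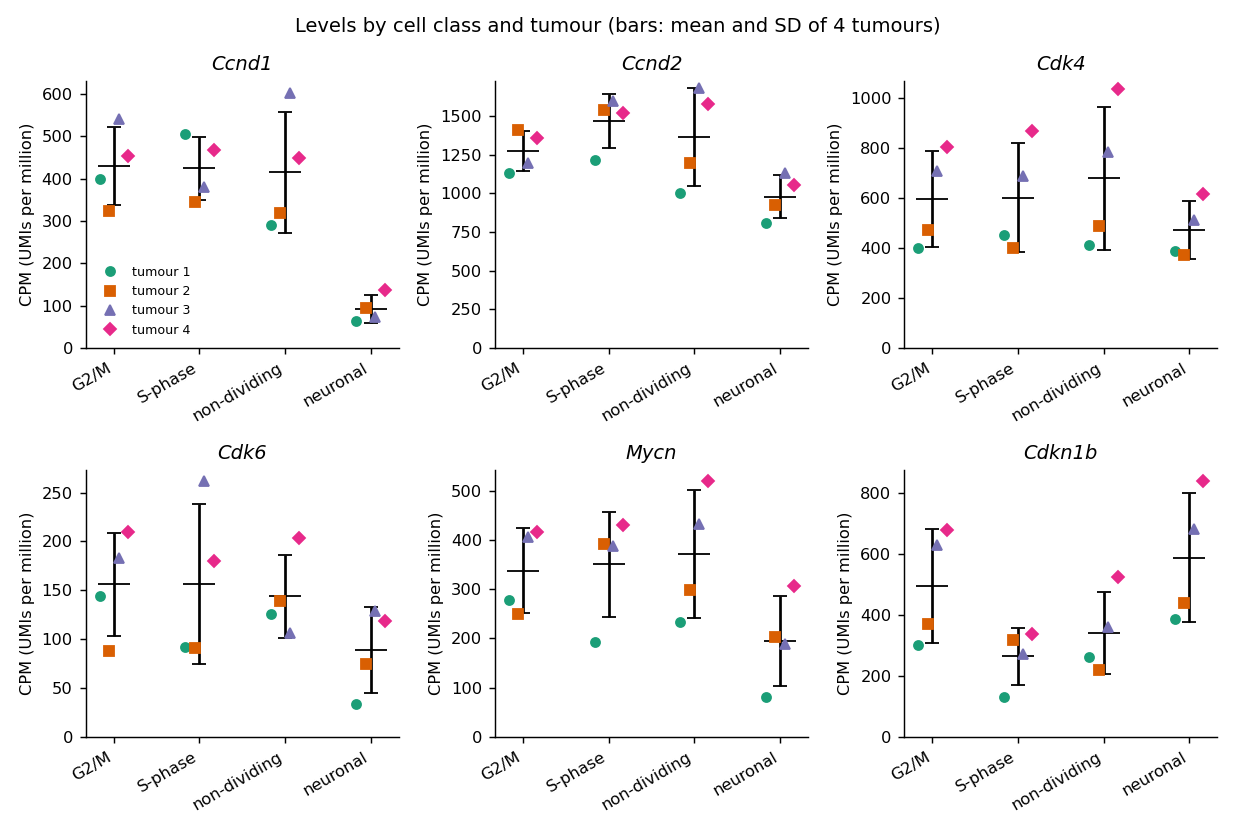
Level of each of the 6 genes, in CPM, in G2/M, S-phase, non-dividing and neuronal cells; each point is 1 tumour and the bars are the mean and SD of 4 tumours. Ccnd1 in neuronal cells (63.1 to 137 CPM) lies below all its other points, and Cdkn1b is lowest on average in S-phase cells (264 CPM) and highest in neuronal cells (588 CPM).

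Among the cells outside the neuronal class, only Cdkn1b passed the test, as it was higher in G2/M cells. The sums of each class and tumour were compared with edgeR's quasi-likelihood test over all genes, with the tumour as a block and Benjamini-Hochberg adjustment (threshold 0.05). The adjusted p-values take the classes, which were built from other genes of the same cells, as given. Between G2/M and S-phase cells 1 of the 6 members passed, against 5.80% of 4877 genes tested, between G2/M and non-dividing cells 1 of 6, against 9.56%, and between S-phase and non-dividing cells none, against 5.99%.

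Cdkn1b was 1.89-fold higher in G2/M than in S-phase cells (log2 fold change 0.92, SE 0.17, edgeR adjusted p = 4.37e-05) and higher in 4 of 4 tumours. It was 1.4-fold higher in G2/M than in non-dividing cells (log2 0.48, SE 0.15, edgeR adjusted p = 0.0272), again in 4 of 4 tumours. Between S-phase and non-dividing cells its log2 difference was -0.43 (SE 0.18, edgeR adjusted p = 0.161), lower in S-phase cells in 3 of 4 tumours. The difference from S-phase cells was 0.60 within tumours 1 and 2 alone (adjusted p = 0.420) and 1.11 within tumours 3 and 4 (adjusted p = 6.75e-09). That from non-dividing cells was 0.37 (adjusted p = 0.550) and 0.57 (adjusted p = 0.00181), and it lost its call without tumour 2 (0.47, adjusted p = 0.0512), without tumour 3 (0.40, adjusted p = 0.214) or without tumour 4 (0.53, adjusted p = 0.128). In all it was lost in 12 of 18 alternatives, among them DESeq2 (0.51, adjusted p = 0.0617) and upper-quartile scaling (0.43, adjusted p = 0.0578).

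For the other 5 genes the log2 differences between G2/M and S-phase cells ran from -0.18 (Ccnd2, SE 0.11) to 0.07 (Cdk6, SE 0.24). Between G2/M and non-dividing cells they ran from -0.22 (Cdk4, SE 0.13) to 0.04 (Cdk6, SE 0.23), and between S-phase and non-dividing cells from -0.21 (Cdk4, SE 0.13) to 0.06 (Ccnd2, SE 0.11). Ccnd1 differed by 0.01, 0.03 and 0.02 in the 3 comparisons, with SEs of 0.16. No member besides Cdkn1b passed, which does not show that the levels were equal. For Ccnd1 the result moved when cells were clustered anew. When barcodes above 10% mitochondrial UMIs were removed and the rest clustered anew, it was higher in G2/M and S-phase than in non-dividing cells (log2 1.73 and 1.70, edgeR adjusted p = 3.52e-07 and 7.03e-06). With the same barcodes removed and the classes kept, the values were -0.075 and -0.22 and did not pass. With the 12 doublets kept Ccnd1 was higher by 0.54 and 0.49 (edgeR adjusted p = 0.00881 and 0.0206). The classes changed there too: tumours held 200 to 400 non-dividing and 125 to 198 neuronal cells, beside 149 to 339 and 191 to 296. No fit kept the classes in that setting.

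Against neuronal cells the cyclins, Cdk6 and Mycn were higher in all 3 other classes and Ccnd1 differed most. From G2/M to neuronal cells 4 of 6 members passed, against 34.6% of all genes tested, from S-phase to neuronal cells 5 of 6, against 37.0%, and from non-dividing to neuronal cells 6 of 6, against 30.8%. These 3 comparisons share the neuronal sums.

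Ccnd1 was 4.45-fold higher in G2/M cells (log2 2.15, SE 0.19, edgeR adjusted p = 1.975e-15), 4.41-fold higher in S-phase cells (2.14, SE 0.20, edgeR adjusted p = 3.28e-14) and 4.34-fold higher in non-dividing cells (2.12, SE 0.20, edgeR adjusted p = 2.01e-14), each in 4 of 4 tumours. Within the first pair of tumours (1 and 2) the 3 values were 2.19, 2.41 and 2.06, and within the other pair 2.07, 1.88 and 2.05. Whether the pairs differ was not tested. When barcodes above 10% mitochondrial UMIs were removed and the rest clustered anew, the non-dividing difference was 0.81 (edgeR adjusted p = 0.199). With the same barcodes removed and the classes kept, it was 2.22 (edgeR adjusted p = 9.09e-14). In cells of at least 1000 UMIs with the classes kept, the 3 differences were 1.40, 1.40 and 1.56 on the log2 scale, all still past the threshold.

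Ccnd2 was 1.32-fold higher in G2/M than in neuronal cells (log2 0.40, SE 0.11, edgeR adjusted p = 0.00356). It was 1.49-fold higher in S-phase cells (0.57, SE 0.12, edgeR adjusted p = 3.43e-05) and 1.43-fold higher in non-dividing cells (0.51, SE 0.11, edgeR adjusted p = 0.000195). Mycn was 1.74-fold higher in G2/M cells (0.80, SE 0.18, edgeR adjusted p = 0.000144), 1.78-fold in S-phase cells (0.83, SE 0.18, edgeR adjusted p = 0.000175) and 1.95-fold in non-dividing cells (0.96, SE 0.17, edgeR adjusted p = 5.47e-06). Both genes were higher than in neuronal cells in 4 of 4 tumours in each comparison. Both lost these calls in cells of at least 1000 UMIs with the classes kept, with log2 differences of 0.22, 0.28 and 0.40 for Ccnd2 and 0.46, 0.41 and 0.50 for Mycn. Neuronal and non-dividing cells had fewer UMIs per cell than cycling cells, and the part of depth in these differences was not tested further.

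The kinases gave smaller or less stable differences. Cdk4 passed only against non-dividing cells, where it was 1.45-fold higher than in neuronal cells (log2 0.53, SE 0.13, edgeR adjusted p = 0.000823), and not without tumour 4 (0.43, adjusted p = 0.0632). The G2/M and S-phase values were 0.32 (edgeR adjusted p = 0.0548) and 0.33 (edgeR adjusted p = 0.0555). Cdk6 was 1.84-fold higher in G2/M cells (0.88, SE 0.25, edgeR adjusted p = 0.00302), 1.76-fold in S-phase cells (0.82, SE 0.27, edgeR adjusted p = 0.0114) and 1.8-fold in non-dividing cells (0.85, SE 0.25, edgeR adjusted p = 0.00614). Without tumour 1, which had the lowest neuronal level, these fell to 0.61, 0.64 and 0.55 (adjusted p = 0.0762, 0.0761 and 0.126), and without tumour 3 the S-phase value was 0.73 (adjusted p = 0.0641). In cells of at least 1000 UMIs with the classes kept, the 3 Cdk6 calls and the Cdk4 call were also lost (Cdk6 0.71, 0.45 and 0.42, edgeR adjusted p = 0.0913, 0.363 and 0.487; Cdk4 0.37, edgeR adjusted p = 0.181). At that depth 11 of the 17 calls in the 6 comparisons were lost. Calls over all genes fell too. Against neuronal cells they went from 1686, 1804 and 1504 of 4877 genes tested to 688, 794 and 487 of 2388 (G2/M, S-phase and non-dividing). The limit left 28 to 116 non-dividing and 34 to 94 neuronal cells per tumour. How much of the loss comes from fewer cells was not tested. The Cdk6 non-dividing call was also lost when barcodes above 10% mitochondrial UMIs were removed and the classes kept (0.59, edgeR adjusted p = 0.124).

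Cdkn1b was the one member higher in neuronal cells. It was 2.25-fold higher there than in S-phase cells (log2 S-phase minus neuronal -1.17, SE 0.17, edgeR adjusted p = 1.70e-08) and 1.66-fold higher than in non-dividing cells (-0.73, SE 0.15, edgeR adjusted p = 4.7e-05), in 4 of 4 tumours each. From G2/M to neuronal cells it differed by -0.25 (SE 0.14, edgeR adjusted p = 0.166). S-phase cells had the lowest mean level and neuronal cells the highest, and the G2/M mean lay between them. Without the tumour block, 4 of the 17 calls in these 6 comparisons remained, those of Ccnd1 against neuronal cells and that of Cdkn1b between S-phase and neuronal cells.

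**Figure D2:**
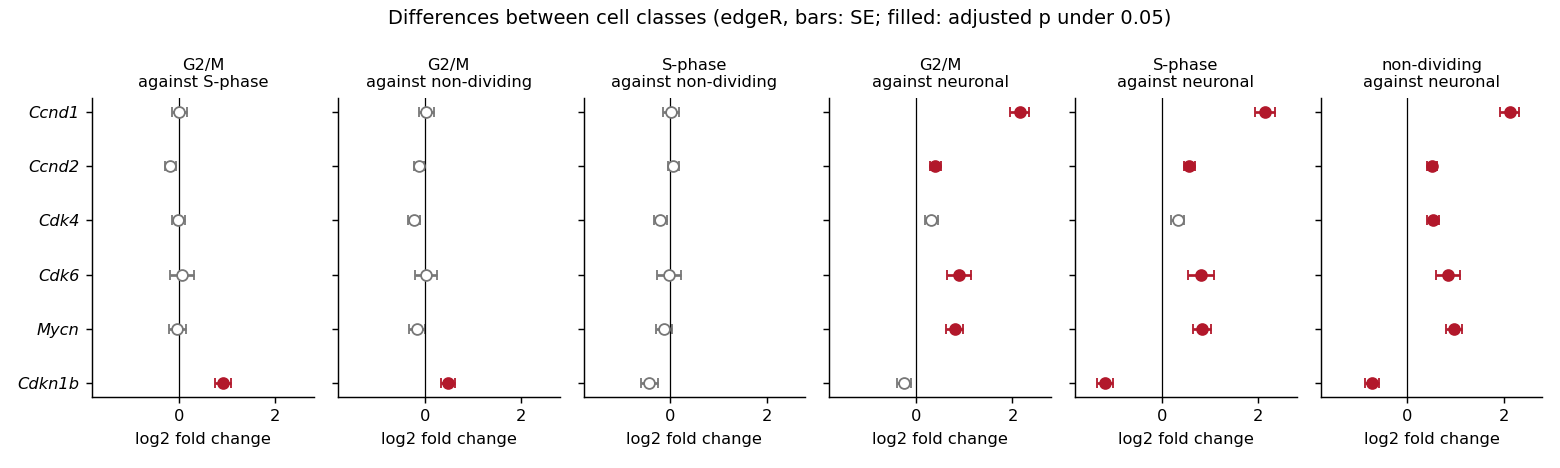
Log2 fold change of each gene (points, with SE bars) in the 6 comparisons between classes; filled points had an edgeR adjusted p under 0.05. In the first 3 panels only Cdkn1b is filled (0.92 and 0.48), while in the 3 comparisons with neuronal cells Ccnd1 lies between 2.12 and 2.15 and Cdkn1b lies left of 0.

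The neuronal class held 2 clusters that differed in Ccnd2. The 2 comparisons that follow were chosen after these levels had been seen and used a separate fit with 5 classes. The Nhlh1-led cluster (525 cells, median 772 UMIs) had 76.1, 105, 117 and 142 CPM of Ccnd1 in tumours 1 to 4 (110.1 ± 27.5, SD, n = 4), and the Grin2b-led cluster (472 cells, median 744.5 UMIs) 50.3, 79.5, 28.3 and 130.04 CPM (72.0 ± 44.0, SD, n = 4). For Ccnd2 the Nhlh1-led cluster had 1192, 1097, 1658 and 1505 CPM (1363 ± 263, SD, n = 4) and the Grin2b-led cluster 428, 704, 552 and 543 CPM (557 ± 113, SD, n = 4). Ccnd1 was thus low in both clusters, while Ccnd2 in the Nhlh1-led cluster lay within the range of the non-dividing class and did not overlap with the Grin2b-led cluster.

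Between the 2 neuronal clusters 3 of 6 members passed, against 7.02% of 4048 genes tested. Ccnd2 was 2.37-fold higher in the Nhlh1-led cluster (log2 1.25, SE 0.15, edgeR adjusted p = 1.88e-09), in 4 of 4 tumours. Mycn had 118, 246, 272 and 407 CPM there (261 ± 118, SD, n = 4) and 41.9, 148, 99.0 and 191 CPM in the Grin2b-led cluster (119.9 ± 64.2, SD, n = 4). That is a 2.09-fold difference (1.06, SE 0.26, edgeR adjusted p = 0.00350), also in 4 of 4 tumours, with overlapping ranges. Without tumour 4 it was 1.09 (adjusted p = 0.0723).

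Cdk4 was 1.51-fold higher in the Nhlh1-led cluster (0.59, SE 0.18, edgeR adjusted p = 0.0259), but tumour 2 had 369 against 375 CPM, and the call was lost without tumour 1, 3 or 4 (adjusted p = 0.0910, 0.170 and 0.366). The Ccnd1 share of cyclin UMIs was 3.72 percentage points lower in the Nhlh1-led cluster, and higher there in 1 of 4 tumours (two-sided exact permutation p = 0.375, smallest possible 0.125). Ccnd1 differed by 0.47 (SE 0.35, edgeR adjusted p = 0.52), Cdk6 by 0.89 (SE 0.39, edgeR adjusted p = 0.172) and Cdkn1b by -0.43 (SE 0.17, edgeR adjusted p = 0.117). Cdkn1b was higher in the Grin2b-led cluster in all 4 tumours, at 411, 477, 735 and 1063 CPM against 363, 412, 635 and 644 CPM.

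Between non-dividing cells and the Nhlh1-led cluster 3 of 6 members passed, against 21.3% of genes. Ccnd1 was 3.87-fold higher in non-dividing cells (log2 1.95, SE 0.23, edgeR adjusted p = 4.83e-10), in 4 of 4 tumours. Ccnd2 differed by 0.10 (SE 0.13, edgeR adjusted p = 0.638). Mycn was higher by 0.60 (SE 0.19, edgeR adjusted p = 0.0168) and Cdkn1b lower by -0.48 (SE 0.17, edgeR adjusted p = 0.0332). The Mycn call was lost without tumour 1, 3 or 4 (adjusted p = 0.158, 0.0750 and 0.0521), and the Cdkn1b call without tumour 2, 3 or 4 (adjusted p = 0.0819, 0.172 and 0.0641). Cdk4 (0.33, edgeR adjusted p = 0.105) and Cdk6 (0.53, edgeR adjusted p = 0.180) did not pass.

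**Figure D3:**
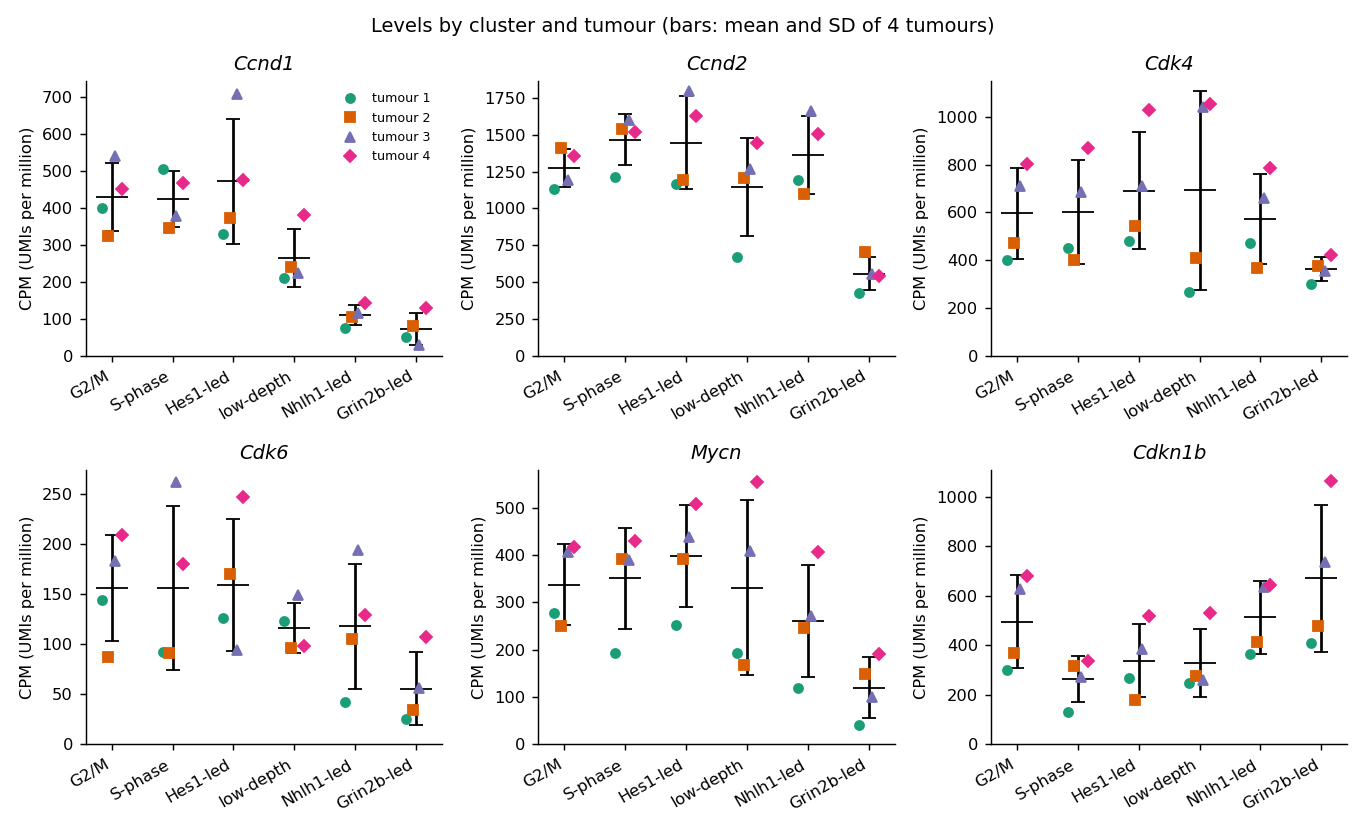
Level of each gene in CPM in G2/M and S-phase cells and in the clusters that make up the non-dividing class (Hes1-led, low-depth) and the neuronal class (Nhlh1-led, Grin2b-led); points are tumours, bars the mean and SD of 4. Ccnd1 is at 110.1 and 72.0 CPM on average in both neuronal clusters, while Ccnd2 has 1363 CPM in the Nhlh1-led and 557 CPM in the Grin2b-led cluster.

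Within the non-dividing class, the low-depth cluster had less Ccnd1 than the Hes1-led cluster in every tumour, 211, 239, 223 and 380.5 CPM (264 ± 78.8, SD, n = 4) against 329, 374, 710.4 and 476 CPM (472 ± 170.1, SD, n = 4). The values of Cdk4 (692 ± 415 against 691 ± 244 CPM) and Cdkn1b (329 ± 136 against 339 ± 148 CPM, SD, n = 4 each) differed by less than the spread between tumours. Its median mitochondrial share was 8.39%, against 4.01% in the Hes1-led cluster. Without the low-depth cluster the 6 members still passed against neuronal cells, with Ccnd1 at 2.16 and Cdkn1b at -0.88 on the log2 scale.

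The balance of the 2 cyclins does not depend on the total of a cell. Ccnd1 made up 26.1%, 18.7%, 31.2% and 25% of Ccnd1 and Ccnd2 UMIs in G2/M cells of tumours 1 to 4 (25.2% ± 5.14, SD, n = 4). It made up 22.6% ± 5.07 in S-phase cells and 22.5%, 21.0%, 26.4% and 22.1% in non-dividing cells (23.0% ± 2.37, SD, n = 4). In neuronal cells it made up 7.25%, 9.22%, 6.18% and 11.5% (8.53% ± 2.33, SD, n = 4), below every tumour's value in the other classes. The share was 7.49% ± 1.41 in the Nhlh1-led and 11.2% ± 5.98 in the Grin2b-led cluster (SD, n = 4), where 32 Ccnd1 UMIs were counted in all.

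The Ccnd1 share was higher in non-dividing than in neuronal cells in 4 of 4 tumours, by 14.5 percentage points, with an exact two-sided paired permutation p of 0.125, the smallest that 4 pairs allow. The 9 comparisons of shares between classes can therefore not pass 0.05, and their p-values were not adjusted. Cdk6 made up 20.9% ± 4.45 of Cdk4 and Cdk6 UMIs in G2/M, 20.1% ± 5.08 in S-phase, 18.5% ± 5.33 in non-dividing and 15.2% ± 5.10 in neuronal cells (SD, n = 4). The share of neuronal cells was below that of non-dividing cells in 3 of 4 tumours (exact paired permutation p = 0.625).

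Cdkn1b against the cyclins gave the widest span of the 3 shares. Cdkn1b made up 12.004% ± 3.55 of Cdkn1b, Ccnd1 and Ccnd2 UMIs in S-phase cells, 15.9% ± 3.59 in non-dividing, 22.0% ± 5.78 in G2/M and 34.6% ± 5.27 in neuronal cells (SD, n = 4). It was 25.6% ± 2.44 in the Nhlh1-led cluster and reached 46.2%, 37.8%, 55.9% and 61.2% in the Grin2b-led cluster of tumours 1 to 4 (50.3% ± 10.4, SD, n = 4). The 2 clusters did not overlap, and the mean difference (Nhlh1-led minus Grin2b-led) was -24.7 percentage points, with the same direction in 4 of 4 tumours (exact two-sided paired permutation p = 0.125). Mean Ccnd2 was 1363 and 557 CPM in the Nhlh1-led and Grin2b-led clusters and mean Cdkn1b 514 and 672 CPM. The share thus largely repeats the Ccnd2 difference, while the Cdkn1b level itself did not pass.

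**Figure D4:**
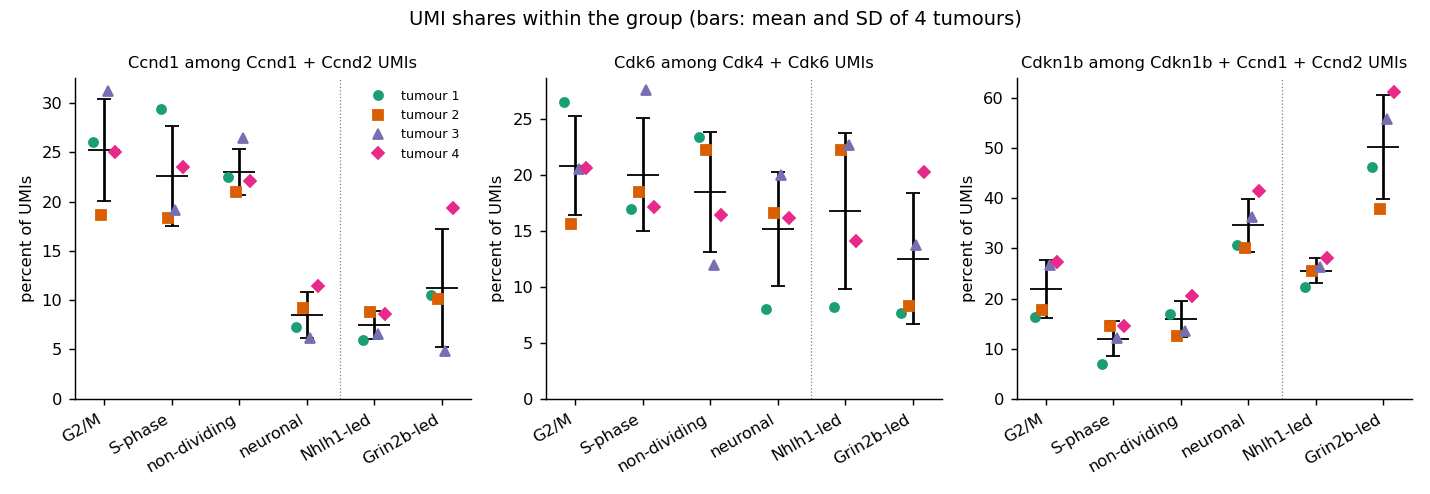
Share of UMIs, in percent, that Ccnd1 takes of Ccnd1 and Ccnd2, Cdk6 of Cdk4 and Cdk6, and Cdkn1b of Cdkn1b, Ccnd1 and Ccnd2, by class and, right of the dotted line, by neuronal cluster; points are tumours, bars the mean and SD of 4. The Ccnd1 share averages 8.53% in neuronal cells and 22.6% to 25.2% in the other classes, and the Cdkn1b share reaches 50.3% in the Grin2b-led cluster.

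With every cell thinned to 500 UMIs, which removes the depth difference between classes and leaves out no cell, Ccnd1 had a UMI in 17.3% ± 5.09 of G2/M, 17.7% ± 2.20 of S-phase, 16.1% ± 4.71 of non-dividing and 3.03% ± 1.02 of neuronal cells (SD, n = 4). Without thinning the means were 35.5%, 29.9%, 24.6% and 6.64%. Ccnd2 had a UMI in 42.0%, 44.5%, 43.5% and 30.6% of thinned cells (67.1%, 69.5%, 57.0% and 43.7% without thinning). Both cyclins had a UMI in 7.91%, 7.98%, 8.13% and 1.69% of thinned cells (27.4%, 21.5%, 16.8% and 4.44% without thinning). Of the 108 thinned G2/M cells with a Ccnd1 UMI, 49 also had a Ccnd2 UMI, and of all 625 thinned G2/M cells 263 had one.

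Immune cells, which should lack Mycn, give a measure of free RNA for that gene. They may make transcripts of the other members themselves, which was not tested. For those genes the immune values stand beside the classes as a description and do not measure free RNA. With thinning, 1 of 23 had a Mycn UMI (4.35%, exact binomial 95% interval 0.11% to 21.9%, median 1228 UMIs), and 2 had a Ccnd1 UMI (8.70%, 1.07% to 28.0%); without thinning 2 had a Mycn UMI and 3 a Ccnd1 UMI. The thinned Ccnd1 shares of all 4 classes lie within that interval. In all UMIs pooled, Ccnd1 had 134 CPM in immune cells (exact Poisson 95% interval 43.5 to 313) and 432, 433 and 406 CPM in G2/M, S-phase and non-dividing cells (lower bounds 388, 379 and 363), which lie above it, while the 95.9 CPM of neuronal cells lies within it. That separation rests on few molecules. Of the 5 immune Ccnd1 UMIs, 4 came from tumour 1, and the immune level was 36.3 CPM without that tumour (0.92 to 202). It was 198 CPM without tumour 2 (54.05 to 508), an interval that holds the levels of all 4 classes, and without tumour 4 its upper bound was 406. For Ccnd2 0 of 23 thinned immune cells had a UMI, with 14.8% as the upper end of the exact interval, and 3 of 23 had one without thinning, with 33.6% as that end. Pooled, immune cells had 11 Ccnd2 UMIs, or 295 CPM (147 to 528), 9 of them from tumour 2, and 99.2 CPM without that tumour. The 4 classes had pooled Ccnd2 levels of 969 to 1478 CPM, but the interval of the Grin2b-led neuronal cluster, 476 to 622 CPM, overlaps that of the immune cells. The left-out tumours were chosen after the data had been seen. Mycn had a UMI in 13.5%, 13.6%, 16.8% and 8.38% of thinned G2/M, S-phase, non-dividing and neuronal cells, which also lie inside the wide interval of the immune cells (28.7%, 26.7%, 24.6% and 14.3% without thinning). Pooled, Mycn had 53.6 CPM in immune cells (6.50 to 194) and 355, 367 and 391 CPM in G2/M, S-phase and non-dividing cells (lower bounds 316, 318 and 350), which lie above that interval. The pooled Mycn interval of neuronal cells, 171 to 232 CPM, overlaps it. Both immune Mycn UMIs came from tumour 2. With each tumour left out in turn, the upper bound for immune Mycn was at most 262 CPM. For Cdkn1b the shares were 19.5%, 11.3%, 15.8% and 24.2%, and 1 immune cell had a UMI (38.8%, 22.8%, 23.2% and 33.9% without thinning, and 5 immune cells). Pooled, Cdkn1b had 188 CPM in immune cells (75.5 to 387), an interval that holds the 279 CPM of S-phase and 368 CPM of non-dividing cells. G2/M and neuronal cells had 536 and 596 CPM. Without tumour 2 the upper bound for immune Cdkn1b was 508 CPM. Cdk6 had 2 UMIs in immune cells, or 53.6 CPM pooled (6.50 to 194). That interval holds its pooled levels in all 4 classes, 170, 161, 156 and 86.6 CPM in G2/M, S-phase, non-dividing and neuronal cells. Intervals cover counting error only.

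Outside the 4 classes, the oligodendrocyte lineage had a larger Ccnd1 share of cyclin UMIs than any of the 4 classes in each tumour, on few molecules. Its 51 cells had 594, 520, 469 and 750 CPM of Ccnd1 in tumours 1 to 4 (583 ± 123, SD, n = 4) and 594, 520, 0 and 276 CPM of Ccnd2 (348 ± 269, SD, n = 4). Pooled, 37 of 58 cyclin UMIs were Ccnd1 (63.8%, exact binomial 95% interval 50.1% to 76.0%). The cyclins had equal counts in tumours 1 and 2, and Ccnd1 the larger count in tumours 3 and 4. The lineage had only 5 Mycn and 2 Cdk6 UMIs. In the 17 endothelial cells 16 Ccnd1 UMIs were read against 3 of Ccnd2. Mycn and Cdk6 had 0 there, with 119.9 CPM as the upper end of the exact Poisson 95% interval.

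The remaining genes of the network were taken from a list of 44, of which 43 were in the tables and 25 passed the filter. They were left out of the clustering, but many are known to vary with the cell cycle, by whose markers 2 classes were named. In G2/M against S-phase cells 7 were higher and 2 lower (36% of the 25, beside 5.80% of all genes tested). In G2/M against non-dividing cells the numbers were 10 and 1 (44%, beside 9.56%) and in S-phase against non-dividing cells 6 and 1 (28%, beside 5.99%). Against neuronal cells they were 12 and 2 for G2/M cells (56%, beside 34.6%) and 13 and 2 for S-phase cells (60%, beside 37.0%). For non-dividing against neuronal cells they were 6 and 1 (28%), which is below the 30.8% of all genes. The median log2 differences in the last 3 were 0.73, 1.14 and 0.81, beside 0.03, 0.05 and 0.08 over all genes tested.

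Among the other cyclins and kinases, Ccne2, which acts with CDK2 at the start of replication, had 294 ± 172 CPM in S-phase and 116 ± 55.7 CPM in G2/M cells (SD, n = 4; log2 G2/M minus S-phase -1.33, edgeR adjusted p = 9.33e-06). Ccna2, the S and G2 cyclin, had 269 ± 102 CPM in G2/M, 93.9 in S-phase, 31.5 in non-dividing and 15.1 CPM in neuronal cells, and Cdk1, the mitotic kinase, 317 ± 124, 96.2, 45.1 and 20.04 CPM. The mean levels of Ccna2 and Cdk1 were graded from G2/M to neuronal cells, while those of Ccnd1 were alike in the first 3 classes. Ccnd3, the remaining D-type cyclin, was named after its values were seen. It had 55.3 ± 25.1, 58.2 ± 27.4, 89.2 ± 35.7 and 33.8 ± 16.4 CPM in G2/M, S-phase, non-dividing and neuronal cells, and was higher in non-dividing than in neuronal cells (log2 1.39, SE 0.32, edgeR adjusted p = 0.000344).

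Of the inhibitors, Cdkn2c and Cdkn2d, which bind CDK4 and CDK6, were the 2 that could be tested. Both were higher in G2/M than in S-phase cells, as Cdkn1b was (log2 1.26 and 1.54, edgeR adjusted p = 0.0225 and 0.000817). Cdkn2c had 104 ± 16.7 CPM in G2/M cells and 15.7 CPM in neuronal cells, and Cdkn2d 127 ± 70.4 and 42.8 CPM. Their neuronal levels were below their G2/M levels (log2 2.53 and 1.53, edgeR adjusted p = 1.61e-07 and 2.91e-05), whereas the Cdkn1b value had the other sign and did not pass. None of the 3 pocket protein genes had enough counts to be tested.

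Of 5 tested E2F and DP genes, E2f3, an activator of replication genes, had 193 ± 25.04 CPM in S-phase cells and 67.5, 80.9 and 67.7 CPM in G2/M, non-dividing and neuronal cells (log2 G2/M minus S-phase -1.51, edgeR adjusted p = 7.55e-06). E2f1 and E2f7 passed between S-phase and neuronal cells (log2 1.40 and 2.07, edgeR adjusted p = 0.00611 and 0.000223). In the MYC and MAX network, Mxd4, whose product competes with MYC proteins for MAX, had 83.0, 78.8, 147 and 231 CPM in G2/M, S-phase, non-dividing and neuronal cells. It was lower in non-dividing than in neuronal cells (log2 -0.59, edgeR adjusted p = 0.0193) and in G2/M than in neuronal cells (-1.48, edgeR adjusted p = 1.04e-07), where Mycn was higher. It was also lower in G2/M and in S-phase than in non-dividing cells (-0.89 and -1.002, edgeR adjusted p = 0.00828 and 0.0132), where Mycn did not pass. Not all of the family ran that way. Mxd3, named after its values were seen, was higher in G2/M than in neuronal and non-dividing cells (3.62 and 2.53, edgeR adjusted p = 3.22e-09 and 2.24e-06) and in S-phase than in neuronal cells (2.50, edgeR adjusted p = 0.000485). Mxi1, of the same family, had 63.9, 69.9, 80.1 and 124 CPM, and Mycl, a Mycn relative, 54.5, 54.9, 67.6 and 32.5 CPM (non-dividing minus neuronal 1.12, edgeR adjusted p = 0.0143).

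Skp2 and Cks1b encode parts of the ligase that marks p27 protein for destruction. Skp2 had 123 ± 33.1 CPM in G2/M, 127 ± 56.8 in S-phase, 56.2 ± 28.0 in non-dividing and 36.5 ± 10.9 CPM in neuronal cells (SD, n = 4). It was higher in G2/M and in S-phase than in non-dividing cells (log2 1.08 in both, edgeR adjusted p = 0.00320 and 0.0123). Cks1b had 236, 117, 107 and 45.9 CPM in the same order. Cdc25a, a phosphatase that activates CDK2, passed between S-phase and neuronal cells (0.82, edgeR adjusted p = 0.0259). Protein was not measured.

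The genes whose pattern over the 16 class and tumour sums was most like each member were found by Pearson's r of log2 CPM, centred within each tumour, among 4146 genes. The sums share 4 libraries and the class labels, so r is a description. For Ccnd1 these were Dkc1 (0.979), Draxin (0.957) and G3bp1 (0.953), for Ccnd2 Naa15 (0.946), Nolc1 (0.942) and Sema7a (0.937), and for Mycn G3bp1 (0.919), Ntrk3 (0.914) and Cnbp (0.911). For Cdk4 they were Rrp15 (0.940), Rpl14 (0.929) and Ndufa12 (0.924), for Cdk6 Psmd11 (0.899), Tspan3 (0.899) and Mrp63 (0.851), and for Cdkn1b Ddah2 (0.913), Slc25a27 (0.904) and Rtn3 (0.903). None was used to build the clusters. Among the members, Ccnd1 and Mycn were the most alike (0.893), followed by Ccnd1 and Ccnd2 (0.831), while Cdkn1b had a negative r with the other 5, from -0.724 (Ccnd2) to -0.420 (Cdk6).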

How the data were processed

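The deposited values are whole UMI counts of genes by barcodes, not normalized, with a table for each tumour. The authors named STAR and the mm10 build, per the submitters' processing notes. Versions, annotation and barcode filter are not given in the sources used here. Libraries were made with Drop-seq, which pairs a cell with a barcoded bead in a droplet and captures 3′ ends, after papain dissociation, per the labels' protocols. A further 6 tables with 11203 cell columns carry cell names found in no label and stayed out.

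Barcodes with at least 500 UMIs were kept, with no mitochondrial limit. Scrublet (scanpy 1.11.5, expected share 6%) marked 12 doublets, which were removed. That is few, so doublets may remain. Cells with at least 4 markers of an immune or vascular list were set aside. The others were clustered (Leiden, 2000 variable genes without the members and the network list, centred per tumour, 30 principal components, 15 neighbours, resolution 1). Clusters were named by at least 3 markers among their top 50 genes with a mean marker log2 fold of 0.4 or more, thresholds set after seeing the data. Counts were summed per tumour and class. The 16 sums were fitted with edgeR 4.0.16 (filterByExpr, TMM, tumour as a block because classes of 1 tumour come from 1 animal; their deviations correlated at 0.52 to 0.75). CPM is the summed count scaled to 1000000 UMIs of the class. The fit was tested on simulated data. SE is the absolute log2 fold change over the root of the F statistic. Exact binomial and Poisson 95% intervals cover counting error only.

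The named genes are the 6 members, up to 3 genes of each role of the network list that passed in at least 1 comparison, by highest mean CPM, and the 3 most alike genes of each member. The members and lists were chosen with earlier results of these data known. Alternatives were DESeq2 1.42.0, other scalings, filters, depth and mitochondrial limits, clusterings and left-out tumours.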

Additional observations from a re-analysis of the deposited data

How the results depend on the processing

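The number of UMIs per cell and the number of tumours limit these results. Most cells held fewer than 1000 UMIs, so 1 molecule of a member decides whether a cell shows it, and 4 tumours allow no paired permutation p below 0.125. Over 48 log2 differences of the members, of which 23 passed, 750 alternative values were computed: 568 kept direction and side of the threshold, 80 lost the call, 24 gained one and 78 changed sign, 6 of them for a difference that had passed. The calls of Ccnd1 between G2/M and neuronal, S-phase and neuronal, and non-dividing and Nhlh1-led cells, of Cdkn1b between S-phase and neuronal cells and of Ccnd2 between the neuronal clusters held in every alternative that gave a value. At least 1000 UMIs with new clusters left 42 non-dividing cells and marker calls 43, resolution 0.5 gave no S-phase class, and with doublets kept only 1 neuronal cluster was named. The cause of the other changes was not tested. The limits with the classes kept, the fits without the low-depth cluster or with the Grin2b-led cluster alone, and the 5-class fit were chosen after seeing the data. All 48 shares of cells without thinning or thinned to 1000 UMIs moved. Such shares depend on depth, and thinning to 1000 UMIs also left out every cell below that number. The parts of depth and of the cells left out were not told apart. Of 306 mean CPM values 12 moved by more than 1 SD.

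With the replicate block, in which each tumour pairs its classes, 17 of the members' 36 differences between the 4 classes passed, and without it 4 did. The numbers of all genes with an adjusted p under 0.05 were 283 (G2/M against S-phase), 466 (G2/M against non-dividing), 1686 (G2/M against neuronal), 292 (S-phase against non-dividing), 1804 (S-phase against neuronal), 1504 (non-dividing against neuronal), 284 (Nhlh1-led against Grin2b-led) and 862 (non-dividing against Nhlh1-led), and the alternatives that moved them by over 1.5 times follow. With DESeq2, the count was 179 for G2/M against S-phase, 304 for G2/M against non-dividing and 167 for S-phase against non-dividing. Without the replicate block, the count was 36 for G2/M against S-phase, 113 for G2/M against non-dividing, 550 for G2/M against neuronal, 4 for S-phase against non-dividing, 630 for S-phase against neuronal, 250 for non-dividing against neuronal, 17 for Nhlh1-led against Grin2b-led and 79 for non-dividing against Nhlh1-led. In tumours 1 and 2 alone, the count was 112 for G2/M against S-phase, 208 for G2/M against non-dividing, 944 for G2/M against neuronal, 107 for S-phase against non-dividing, 914 for S-phase against neuronal, 618 for non-dividing against neuronal, 88 for Nhlh1-led against Grin2b-led and 322 for non-dividing against Nhlh1-led. With a mitochondrial share of at most 10% and new clusters, the count was 140 for G2/M against S-phase, 549 for S-phase against non-dividing, 1119 for S-phase against neuronal and 296 for non-dividing against neuronal. With classes called from marker UMIs per cell, the count was 181 for G2/M against S-phase, 822 for G2/M against neuronal, 796 for S-phase against neuronal and 328 for non-dividing against neuronal. With at least 1000 UMIs and the same classes, the count was 161 for G2/M against S-phase, 208 for G2/M against non-dividing, 688 for G2/M against neuronal, 116 for S-phase against non-dividing, 794 for S-phase against neuronal and 487 for non-dividing against neuronal. With at least 1000 UMIs and new clusters, the count was 113 for G2/M against non-dividing, 613 for G2/M against neuronal, 16 for S-phase against non-dividing, 774 for S-phase against neuronal and 212 for non-dividing against neuronal. With doublets kept, the count was 481 for S-phase against non-dividing. With at most 10% and the same classes, the count was 169 for S-phase against non-dividing. Leaving out 1 tumour at a time gave 162 to 256 (G2/M against S-phase), 287 to 421 (G2/M against non-dividing), 161 to 263 (S-phase against non-dividing), 1176 to 1767 (S-phase against neuronal), 942 to 1418 (non-dividing against neuronal), 153 to 297 (Nhlh1-led against Grin2b-led) and 479 to 744 (non-dividing against Nhlh1-led).

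The log2 differences that changed sign lay mostly among cycling and non-dividing cells, where few had passed. In tumours 1 and 2 alone, Ccnd1 was -0.22 and Cdk4 0.037 (G2/M against S-phase), Ccnd2 0.092 and Cdk6 -0.27 (G2/M against non-dividing), Mycn 0.0037 (S-phase against non-dividing). With at least 1000 UMIs and new clusters, Ccnd1 was -0.036 (G2/M against S-phase), Ccnd2 0.44 and Mycn 0.53 (G2/M against non-dividing), Cdk4 0.058, Cdkn1b 0.13 and Mycn 0.65 (S-phase against non-dividing), Ccnd2 -0.12 and Mycn -0.070 (non-dividing against neuronal). With classes called from marker UMIs per cell, Ccnd1 was -0.064 and Mycn 0.057 (G2/M against S-phase), Ccnd2 0.93, Cdk4 0.51 and Mycn 0.997 (G2/M against non-dividing), Cdk4 0.62, Cdk6 1.71, Cdkn1b 0.32 and Mycn 0.94 (S-phase against non-dividing), Ccnd2 -0.61, Cdk4 -0.19 and Cdk6 -1.18 (non-dividing against neuronal). With at least 1000 UMIs and the same classes, Ccnd1 was -0.0076 and Mycn 0.041 (G2/M against S-phase), Ccnd1 -0.17 (G2/M against non-dividing), Ccnd1 -0.16, Ccnd2 -0.12 and Cdk6 0.027 (S-phase against non-dividing). With DESeq2, Cdk4 was 0.00034 (G2/M against S-phase). With no filter on low counts, Cdk4 was 0.035 and Mycn 0.016 (G2/M against S-phase), Ccnd1 -0.0083 (S-phase against non-dividing). With at most 10% and the same classes, Cdk4 was 0.081 and Mycn 0.15 (G2/M against S-phase), Ccnd1 -0.075 (G2/M against non-dividing), Ccnd1 -0.22, Ccnd2 -0.070 and Cdk6 0.15 (S-phase against non-dividing). In tumours 3 and 4 alone, Cdk6 was -0.028 and Mycn 0.020 (G2/M against S-phase), Ccnd1 -0.17, Ccnd2 -0.027 and Cdk6 0.32 (S-phase against non-dividing). With doublets kept, Cdk6 was -0.043 and Mycn 0.11 (G2/M against S-phase), Cdk6 -0.025 (G2/M against non-dividing), Cdk6 0.018 (S-phase against non-dividing). With a mitochondrial share of at most 10% and new clusters, Mycn was 0.51 (G2/M against S-phase), Cdk4 0.17, Cdkn1b -0.048 and Mycn 0.30 (G2/M against non-dividing), Cdk4 0.18 and Cdk6 0.17 (S-phase against non-dividing). With upper-quartile scaling, Ccnd1 was -0.019 and Cdk6 -0.015 (G2/M against non-dividing), Ccnd1 -0.040 (S-phase against non-dividing). Without the low-depth cluster, Ccnd1 was -0.064 and Cdk6 -0.031 (G2/M against non-dividing), Ccnd1 -0.079 (S-phase against non-dividing). Without the replicate block, Cdk6 was 0.045 (S-phase against non-dividing). Of these, the Ccnd2 value of 0.93 passed the threshold (edgeR adjusted p = 0.0222). Leaving out 1 tumour at a time gave ranges that include 0. For G2/M against S-phase cells they were -0.13 to 0.14 for Ccnd1, -0.038 to 0.053 for Cdk4, -0.037 to 0.30 for Cdk6 and -0.13 to 0.16 for Mycn. For G2/M against non-dividing cells they were -0.019 to 0.11 for Ccnd1, -0.17 to 0.0038 for Ccnd2 and -0.090 to 0.24 for Cdk6. For S-phase against non-dividing cells they were -0.16 to 0.24 for Ccnd1, -0.0040 to 0.11 for Ccnd2 and -0.39 to 0.13 for Cdk6.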
